A study of Mus musculus with 4 samples.

Results

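The Wnt ligands, their receptors, co-receptors and secreted antagonists, the R-spondins, the Axins and the TCF/LEF transcription factors were described in primary mouse aortic smooth muscle cells with and without a floxed Atg7 allele. The members were the non-control probes of the arrays whose gene name belongs to the Wnt, Fzd, Rspo, Lrp5 and Lrp6, Dkk, Sfrp, Wif1, Axin, Tcf7 or Lef1 names. They were 49 genes read by 71 probes, of 27827 gene names and 41174 probes on the array. One group of cells was Atg7F/F SM22α-Cre+, homozygous for a floxed allele of the autophagy gene Atg7. The other was Atg7+/+ SM22α-Cre+, with normal alleles. In both groups Cre recombinase was driven by the smooth muscle promoter SM22α, so cells in which that promoter is silent would keep Atg7. The strain is given as C57LB/6. The culture medium was DMEM/F-12 containing 10% FBS, and cells of both groups were used between passages 4 and 10; the passage of each extract and the ages of the mice are not given in the sources used here. Each genotype had 2 biological replicates, and the labels do not say how many animals gave each culture. The Atg7F/F and Atg7+/+ extracts of one replicate number were labelled with Cy5 and Cy3, hybridised together, and hybridised again with the dyes exchanged, which gave 4 arrays. The question of the study was which genes differ in expression between the genotypes.

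Wnt proteins are secreted, lipid-modified ligands that bind Frizzled receptors. With the co-receptors Lrp5 or Lrp6 they stop the Axin-containing destruction complex from degrading beta-catenin, which then enters the nucleus and acts with TCF/LEF factors. Other ligands, such as Wnt5a, mainly signal without beta-catenin, through small GTPases and calcium. R-spondins keep Frizzled receptors on the membrane, whereas secreted Frizzled-related proteins (Sfrp) and Wif1 bind the ligands and Dickkopf proteins (Dkk) bind Lrp5 and Lrp6. In vascular smooth muscle these signals are known for their part in proliferation, migration and calcification.

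The probes are DNA oligomers of 60 bases, and several genes had probes that gave opposite pictures of whether the gene was measurable. The first 30 bases of such pairs are printed here because detection of these genes rested on which probe was read, followed by the probes of the members discussed most. Positions are those of the deposited files on mm9, and the sequences are 5′ to 3′ as the files give them.
Rspo2, well above background on all arrays, chr15:42852727-42852786, minus strand: ccttaggtcagtttgtccttagattatgaa
Rspo2, above background in no channel, chr15:42906210-42906269, minus strand: cagcgtattcagatggaattttcacaaagt
Sfrp1, well above background on all arrays, chr8:24558112-24558171, plus strand: cggaatcagtatagcgtggaaggagacagt
Sfrp1, above background in no channel, chr8:24558800-24558859, plus strand: gtgcattagtaattagaaatagtctaacct
Fzd2, well above background on all arrays, chr11:102467613-102467672, plus strand: tcacagtctacatgatcaaatacctcatga
Fzd2, above background in 1 of 8 channels, chr11:102469045-102469104, plus strand: cgtgacattctatatcataagatattgata
Fzd7, upstream probe, chr1:59541367-59541426, plus strand: agccccgactttacagtcttcatgatcaag
Fzd7, downstream probe, chr1:59543192-59543251, plus strand: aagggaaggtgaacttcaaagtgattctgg
Sfrp2, chr3:83577864-83577923, plus strand: tcggcatctaagtcttcaaacatttcgttg
Sfrp4, chr13:19724488-19724547, plus strand: cacagttgtctgtgtgcatactgtgtaaga
Fzd1, chr5:4754003-4754062, minus strand: caaatgccgatacatacataggacctaaat
Fzd6, chr15:38869107-38869166, plus strand: ggccgagctgtcgattccccttttaagtgt

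The measured and silent probes of Sfrp1 had GC contents of 45.0% and 35.0%, those of Fzd2 of 50% and 35.0%, and those of Rspo2 of 38.3% and 35.0%. In Fzd5, Wnt6, Lef1 and Lrp6, too, the tested probe had the higher GC content. The Tcf7l2 probes had no single order. Wnt9a and Fzd3 had the reverse order. The tested Wnt9a probe had 35.0% and the silent one 53.3%, and the tested and untested Fzd3 probes had 40.0% and 45.0%. Whether base composition or the transcript end that a probe reads bears on detection was not tested. Between probes of different member genes, the longest run of bases shared on one strand was 14, between Fzd2 and Fzd7. No annotation of mm9 was used here, so the exon or untranslated region under a probe is not stated.

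The share of spots well above background lay between 43.3% and 45.5% in every channel, and 0 spots were saturated. The log2 ratio of Atg7F/F over Atg7+/+ was read for Atg7 itself as -1.26 and -1.09 on the arrays of replicate 1, then as -0.96 and -1.57 on those of replicate 2. Here and below, the array with Atg7F/F in Cy5 is given first and that with Atg7F/F in Cy3 second. Atg7 was lower in Atg7F/F on all 4 arrays, with a mean of -1.22 ± 0.07 (SD, n = 2), and limma's unadjusted p was 5.34e-04 and its adjusted p 1.0. A second Atg7 probe was above background in no channel and was not tested. The floxed exon is not named in the labels, and the tested probe may lie outside it. All 13 smooth muscle markers were above background in some channel and 11 were tested. Tagln, which encodes the SM22α protein, had a mean log2 ratio of -0.23 ± 0.06.

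**Figure D1:**
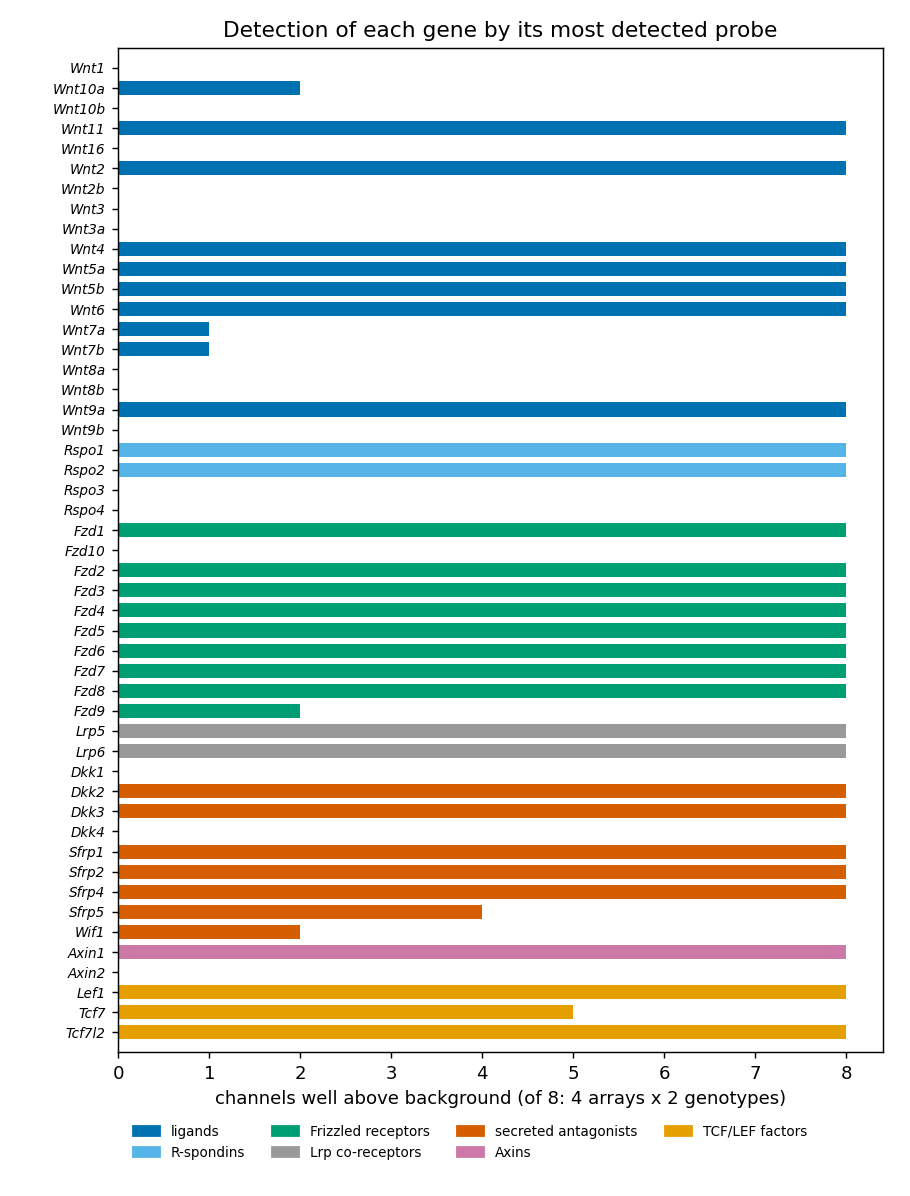
Number of channels (of 8, being 4 arrays with 2 genotypes each) in which each of the 49 genes was well above background, by its most often detected probe. Bars are coloured by role; 15 genes have no bar because no channel was above background.

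Of the 71 probes, 30 for 27 genes were bright enough to be tested, being well above background in at least 1 genotype on all 4 arrays. That was 42.3% of the members, against 41.6% of all probes. Of the 30, 29 were above background in both genotypes on every array. The exception was a Wnt5b probe (chr6:119390320-119390379), above background on all 4 arrays in Atg7+/+ and on 3 in Atg7F/F. Tested genes were 7 of 19 ligands, 2 of 4 R-spondins, 8 of 10 Frizzled receptors, both Lrp co-receptors, 5 of 9 secreted antagonists, 1 of 2 Axins and 2 of 3 TCF/LEF factors. Most receptors were therefore measured, and most ligands were not.

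No member differed between the genotypes past the adjusted threshold of 0.05. With limma the count was 0 of 30 probes, each with an adjusted p of 1.0, and over all 17109 tested probes the share called was 0.0%. At an unadjusted p below 0.05, limma's count was 2 members, Sfrp2 and Fzd6, against 3.13% of all probes. That count was 0 with arrays centred on their median, 1 without the replicate block and 4 with the dye-swap pairs as a random block. With the dye-swap pairs as a random block the adjusted count of members was also 0. Of the members, 0 had a mean ratio of at least 2-fold, and of all 17109 tested probes only 48 had one. With the scanner software's processed signals Sfrp4 and Wnt4 reached 2-fold, at log2 ratios of 1.098 and 1.015. With the processing used here, the mean ratios of the 30 probes ran from -0.66 to 0.78 on the log2 scale. Their median was 0.03, against a median of 0.00 over all probes. The offset added before taking logs pulls ratios of dim probes towards 0. Over the alternative settings that kept both replicates, 20 members moved by more than 1.5 times or changed sign in some setting, and their mean ratios were at most 0.197 in size. Besides Wnt4, Rspo1 and Wnt9a, described below, Wnt11 reached -0.29, Wnt6 0.21, Dkk3 0.35, Fzd3 0.17, Axin1 -0.22, the Tcf7l2 probe that was lower on all arrays -0.30, and the Wnt5b probe at chr6:119390320-119390379 -0.25.

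Of the members, 4 were higher in Atg7F/F on all 4 arrays: Wnt4, Fzd1, the downstream Fzd7 probe and Sfrp4. The share of all probes with this pattern was 10.2%. Another 4 were lower on all 4 arrays, namely Wnt9a, Fzd6, Sfrp2 and 1 of the Tcf7l2 probes, where the share of all probes was 10.1%. With arrays centred on their median in place of loess, 2 members were higher and 0 were lower on all 4 arrays. The more frequent pattern was disagreement between the replicates. For 13 probes (43.3%) both arrays of replicate 1 had one sign and both arrays of replicate 2 the other, whereas 25.3% of all probes did so.

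**Figure D2:**
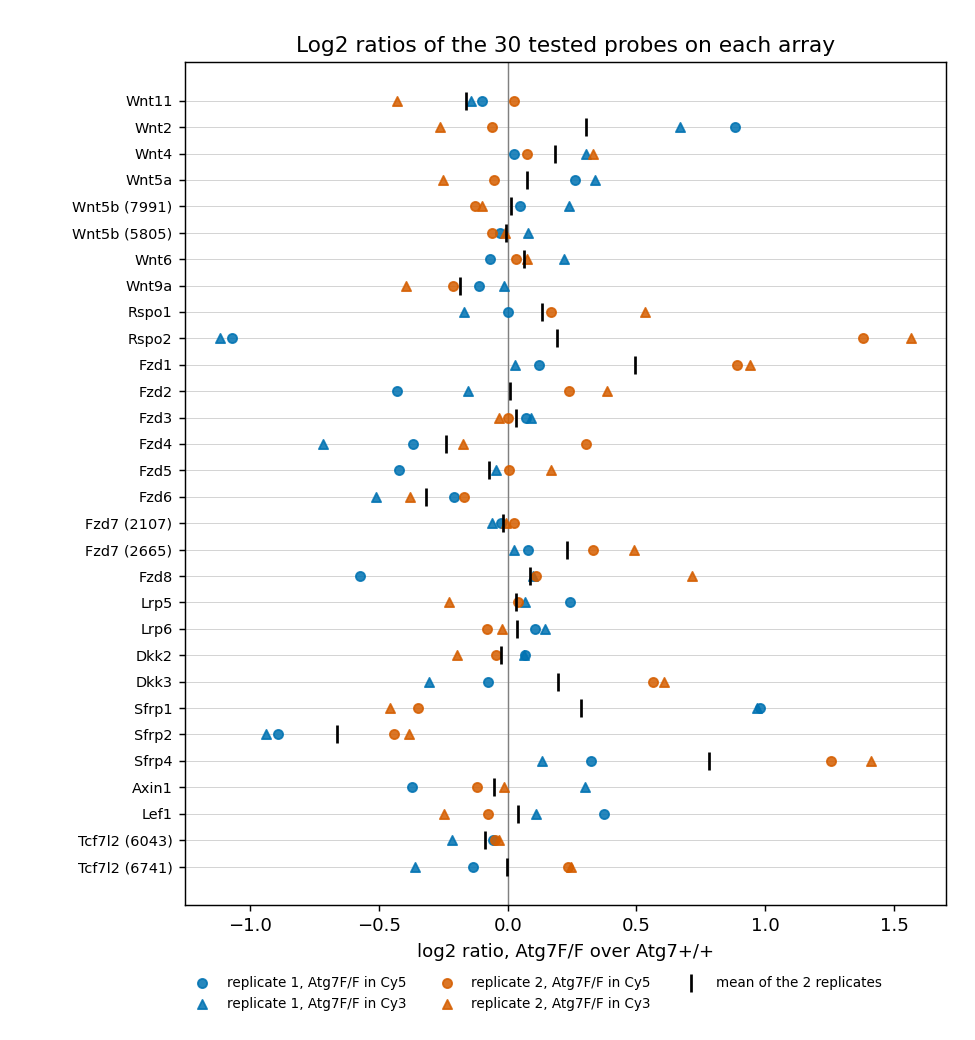
Log2 ratio of Atg7F/F over Atg7+/+ (x axis) for each of the 30 tested probes on each of the 4 arrays, with circles and triangles for the dye orientation, colours for the replicate and a bar for the mean of the replicates. Numbers after a gene name are the last digits of its probe. The points of a replicate lie close together for Rspo2, Sfrp1 and Sfrp4, and the replicates lie apart.

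Among the ligands, Wnt2, which signals through beta-catenin in many tissues, showed the widest replicate difference. Its log2 ratios were 0.88 and 0.67 in replicate 1, against -0.06 and -0.26 in replicate 2, with a mean of 0.31 ± 0.66. Replicate 1 was thus higher and replicate 2 lower in Atg7F/F on both dye orientations. The normalized log2 signals of the Atg7F/F extracts were 8.97 and 8.67, and those of the Atg7+/+ extracts 8.20 and 8.83, so the genotypes overlapped, with the Atg7+/+ extract of replicate 1 lowest. Wnt5a, the ligand best known for signalling without beta-catenin, followed the same order, with ratios of 0.26 and 0.34, then -0.05 and -0.25, and a mean of 0.07 ± 0.32. Its signals of 7.63 and 7.14 in Atg7F/F lay on either side of 7.33 and 7.29 in Atg7+/+.

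Wnt4 had ratios of 0.02 and 0.30 in replicate 1, against 0.07 and 0.33 in replicate 2. All were above 0, and the higher value of each replicate came from the array with Atg7F/F in Cy3. Its mean was 0.18 ± 0.03, with an unadjusted p of 0.0954 in limma, and the mean was 0.48 with no offset, which spreads the ratios of dim probes, and 1.01 with the scanner software's processed signals. The raw spot signals were dim, at 123, 84.3, 108 and 77.9 in Atg7F/F and 76.6, 102, 64.7 and 95.6 in Atg7+/+, in the same order of arrays. Wnt9a, which lies beside Wnt3a on chromosome 11, had ratios of -0.11, -0.02, -0.21 and -0.39 and a mean of -0.18 ± 0.17, which reached -0.35 over the alternative settings. It was below 0 on every array, and its signals were 7.86 and 7.29 in Atg7F/F against 7.93 and 7.60 in Atg7+/+. The genotypes overlapped, and both were lower in replicate 2.

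The remaining ligands had mean ratios between -0.16 and 0.07. Wnt11, a ligand of the planar polarity branch, had ratios of -0.10, -0.14, 0.02 and -0.43 and a mean of -0.16 ± 0.06. Wnt6 had a mean of 0.07 ± 0.02. Its single tested probe was above background on every array, whereas the other Wnt6 probe was above background in no channel. Wnt5b, a close relative of Wnt5a, had means of 0.01 ± 0.18 and -0.01 ± 0.04 with its 2 probes.

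The largest replicate difference of any member belonged to Rspo2, an R-spondin that binds Lgr receptors and raises Wnt sensitivity. Its log2 ratios were -1.07 and -1.12 in replicate 1, against 1.38 and 1.57 in replicate 2. Atg7F/F was 2.13-fold lower in the first and 2.78-fold higher in the second, and each pair of dye-swapped arrays differed by at most 0.19. The raw spot signals in Atg7F/F were 317 (Cy5) and 214 (Cy3) in the first pair of extracts, and 1534 and 1222 in the second. In Atg7+/+ the first pair gave 457 (Cy3) and 633 (Cy5), and the second gave 437 and 576. The Atg7+/+ extracts were alike, at normalized log2 signals of 9.10 and 9.09, and the Atg7F/F extracts lay below and above them, at 8.01 and 10.56. The mean ratio of 0.19 ± 1.82 describes neither replicate, and limma's unadjusted p was 0.812. The silent Rspo2 probe printed above had raw Cy3 signals between 52.7 and 55.7, near the local background.

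Rspo1, also a Lgr ligand, had ratios of -0.00, -0.17, 0.17 and 0.53. Its mean was 0.13 ± 0.31, with signals of 6.78 and 6.90 in Atg7F/F and of 6.87 and 6.55 in Atg7+/+. The genotypes overlapped, and over the alternative settings the mean reached 0.78. Rspo3 and Rspo4 were above background in no channel with any of their probes.

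**Figure D3:**
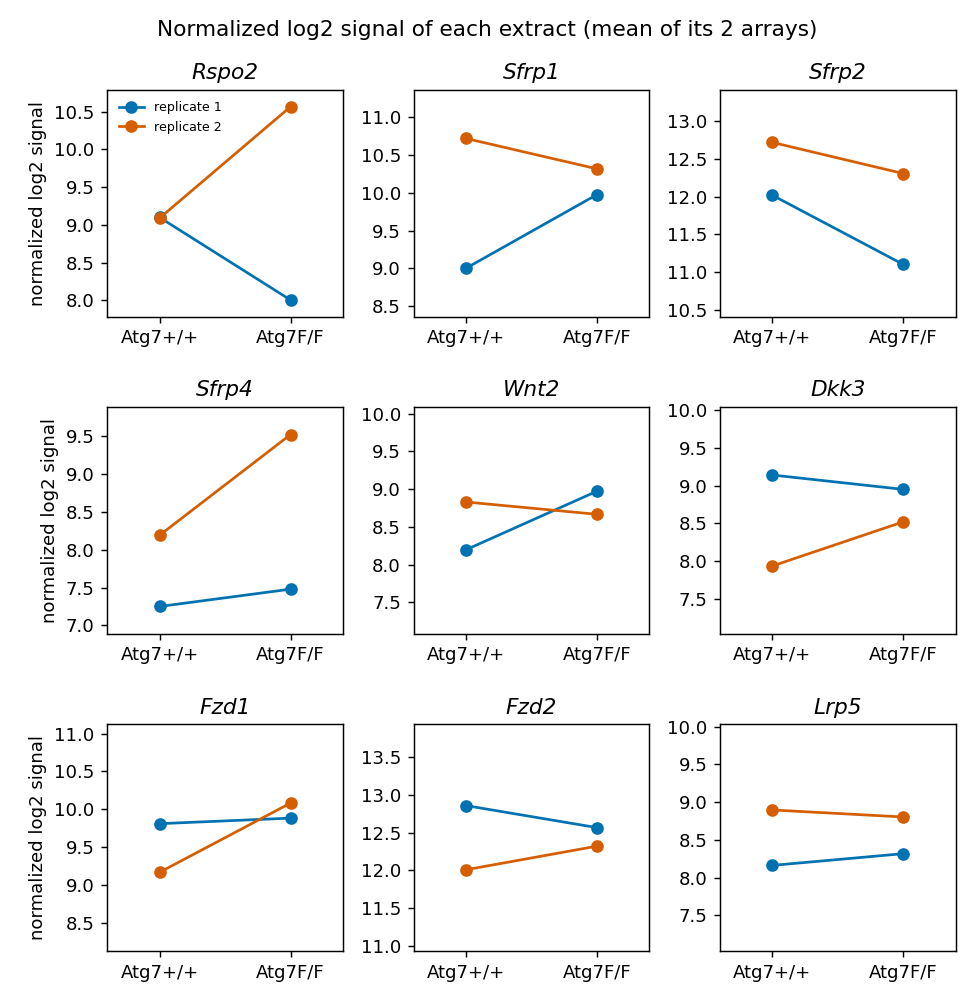
Normalized log2 signal (y axis, each panel with its own range) of 9 members in the 4 extracts, joined within a replicate, each point being the mean of the extract's 2 arrays. The lines run opposite ways for Rspo2, Sfrp1, Wnt2, Dkk3, Fzd2 and Lrp5, and run the same way for Sfrp2, Sfrp4 and Fzd1. Those of Fzd1 cross.

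Of the Frizzled receptors, Fzd6, which is tied to planar cell polarity, was lower in Atg7F/F by a similar amount in both replicates. Its log2 ratios were -0.21 and -0.51 in replicate 1, against -0.17 and -0.38 in replicate 2, with a mean of -0.32 ± 0.06, or 1.25-fold lower. Limma's unadjusted p was 0.0272 and the adjusted p 1.0, and with median centring the unadjusted p was not below 0.05. Both Atg7F/F extracts had a signal of 8.55, and the Atg7+/+ extracts had 8.91 and 8.83. How many of all probes separate the genotypes in this way was not counted. The Fzd6 ratio stayed between -0.40 and -0.27 over the 11 alternative settings.

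Fzd1, a receptor that can signal through beta-catenin, had ratios of 0.12 and 0.03 in replicate 1, then 0.89 and 0.94 in replicate 2. All 4 were above 0, with a mean of 0.50 ± 0.60, but only replicate 2 was far from 0. The signals were 9.88 and 10.08 in Atg7F/F and 9.81 and 9.17 in Atg7+/+. The replicates of Atg7+/+ thus differed by 0.64, more than those of Atg7F/F.

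Fzd7, whose protein is close in sequence to Fzd1 and Fzd2, was read by 2 probes that differed. The downstream probe had ratios of 0.08, 0.03, 0.33 and 0.49 and a mean of 0.23 ± 0.25. The upstream probe had -0.02, -0.06, 0.03 and -0.00 and a mean of -0.02 ± 0.04. The upstream probe shares its run of 14 bases with the measured Fzd2 probe, and its raw Cy3 signals were between 83.7 and 89.4. Only the downstream probe was above 0 on all arrays.

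Fzd2 had ratios of -0.43 and -0.15 in replicate 1, then 0.24 and 0.39 in replicate 2, and a mean of 0.01 ± 0.43. Its signals were 12.57 and 12.32 in Atg7F/F and 12.86 and 12.01 in Atg7+/+. The Atg7F/F extracts lay between the Atg7+/+ extracts. Fzd4, the receptor for norrin and a receptor important in vessels, had ratios of -0.37, -0.72, 0.31 and -0.17 and a mean of -0.24 ± 0.43. It was lower in replicate 1 only, and in replicate 2 its sign followed the dye.

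Fzd8 also followed the dye in part, with -0.57 and 0.10, then 0.11 and 0.72, and a mean of 0.09 ± 0.46. Fzd5 had a mean of -0.07 ± 0.23 and Fzd3 one of 0.03 ± 0.07. In both, a second probe was above background on some arrays only and was not tested.

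The co-receptor Lrp5 differed more between replicates than between genotypes. Its signals were 8.32 and 8.80 in Atg7F/F and 8.16 and 8.90 in Atg7+/+, so that both replicate 2 extracts were above both replicate 1 extracts. The log2 ratios were 0.24, 0.07, 0.04 and -0.23, with a mean of 0.03 ± 0.18. Lrp6, the other co-receptor, had ratios of 0.11, 0.15, -0.08 and -0.02 and a mean of 0.04 ± 0.13.

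The secreted antagonists held the lowest and the highest mean ratio of all members. Sfrp2, which binds Wnt ligands outside the cell, had log2 ratios of -0.89 and -0.94 in replicate 1, then -0.44 and -0.38 in replicate 2. It was lower in Atg7F/F on all 4 arrays, with a mean of -0.66 ± 0.36, or 1.58-fold lower, and limma's unadjusted p was 0.0249, though not below 0.05 with median centring. The raw spot signals were 2813 and 5402 in Atg7F/F and 3567 and 5742 in Atg7+/+ on the arrays with Atg7F/F in Cy5. With the dyes exchanged they were 1849 and 4170 against 5070 and 7708. The normalized signals of 11.10 and 12.31 in Atg7F/F and of 12.02 and 12.72 in Atg7+/+ overlapped across replicates, since both genotypes were higher in replicate 2. Within each replicate the Atg7F/F extract was the lower. The lowest adjusted p of any member in any alternative setting was 0.322, for Sfrp2, and for this probe the adjusted p ran up to 1.0.

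Sfrp4, a further member of the same family, had ratios of 0.32 and 0.13 in replicate 1, then 1.26 and 1.41 in replicate 2. It was higher on all 4 arrays, by 1.17-fold in replicate 1 and 2.52-fold in replicate 2. The mean was 0.78 ± 0.78, and limma's unadjusted p was 0.0918. The signals were 7.48 and 9.53 in Atg7F/F and 7.25 and 8.19 in Atg7+/+, and again both genotypes were higher in replicate 2. The difference between the replicates was 1.10 log2 units, larger than the mean ratio.

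Sfrp1 had ratios of 0.98 and 0.97 in replicate 1, then -0.35 and -0.46 in replicate 2. Atg7F/F was 1.97-fold higher in the first and 1.32-fold lower in the second, with a mean of 0.29 ± 0.97. Here the Atg7+/+ extracts were far apart, at 9.00 and 10.72, and the Atg7F/F extracts, at 9.98 and 10.32, lay between them. This was the reverse of Rspo2, in which the Atg7F/F extracts were far apart. The 3 Sfrp genes that were tested had 3 different patterns, with Sfrp2 lower, Sfrp4 higher and Sfrp1 opposite between the replicates.

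Dkk3, a divergent Dickkopf that is not a typical Lrp6 ligand, had ratios of -0.08 and -0.30 in replicate 1, then 0.56 and 0.61 in replicate 2. The mean was 0.20 ± 0.55. The Atg7+/+ extracts were the highest and the lowest of the 4, at 9.14 and 7.94, with the Atg7F/F extracts at 8.95 and 8.52. Dkk2, which binds Lrp5 and Lrp6, had a mean of -0.03 ± 0.13 from ratios of 0.07, 0.06, -0.04 and -0.20.

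Inside the cell, Axin1, the scaffold of the destruction complex, had ratios of -0.37, 0.30, -0.12 and -0.02. In replicate 1 the sign followed the dye, and the mean was -0.05 ± 0.02. Lef1, which acts with beta-catenin on DNA, had ratios of 0.37, 0.11, -0.08 and -0.25 and a mean of 0.04 ± 0.28, opposite between the replicates. Tcf7l2, the second TCF/LEF factor tested, had a mean of -0.09 ± 0.07 with the probe at chr19:55982975-55983034, below 0 on all arrays. With the probe at chr19:56007586-56007645 its ratios were -0.14, -0.36, 0.23 and 0.24 and the mean was -0.00 ± 0.34. The probes of this gene thus differed in pattern.

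**Figure D4:**
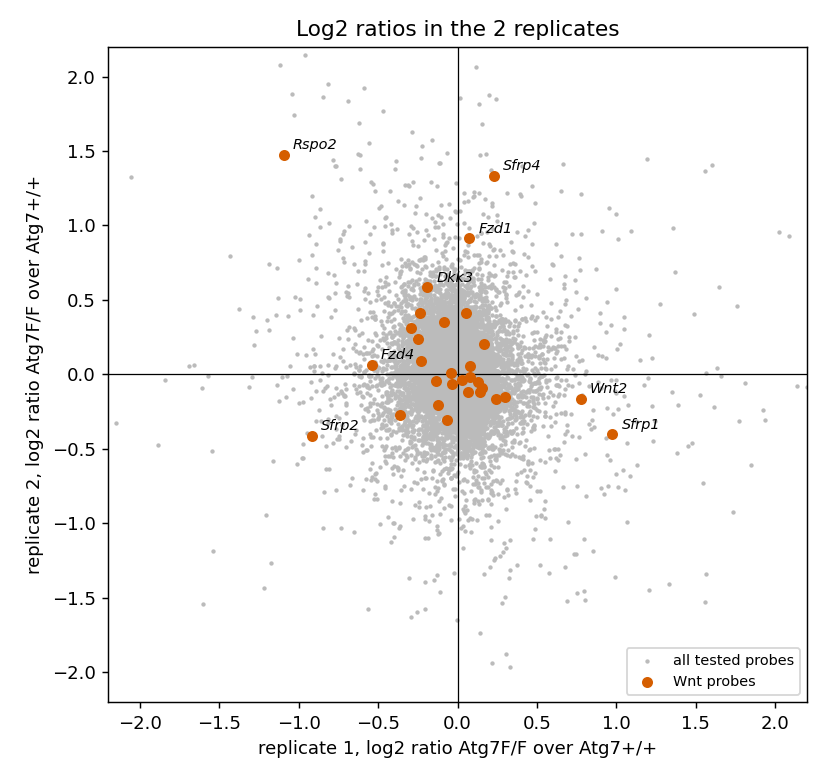
Log2 ratio in replicate 1 (x axis) against replicate 2 (y axis) for all tested probes in grey and the 30 Wnt probes in colour, each value being the mean of a dye swap. The axes stop at 2.2 on either side, which leaves 34 grey probes outside; Rspo2 and Sfrp1 lie in the quadrants where the replicates have opposite signs.

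Across the 30 probes the spread between replicates was wider than the spread within a dye swap. The replicates were further apart than the arrays of either dye swap for 20 probes (66.7%), against 47.2% of all probes. Rspo2, Sfrp1 and Sfrp4 were more than 1 log2 unit apart, which is 10.0% of the members, where 2.55% of all probes were. The median difference between replicates was 0.34 for the members and 0.15 for all probes. By role, the median was 0.78 for the 5 antagonists, all of them further apart than either dye swap, 0.36 for the 9 Frizzled probes and 0.16 for the 8 ligand probes. It was 1.501 for the 2 R-spondin probes, 0.40 for the 3 TCF/LEF probes and 0.21 for the 2 Lrp probes, and the Axin1 probe had 0.03. Probes of one pathway in the same 4 extracts are not independent, so these shares are descriptions.

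Between the Atg7F/F extracts the median absolute difference was 0.17 for the members and 0.15 for all probes, and between the Atg7+/+ extracts it was 0.28 and 0.12. For the antagonists it was 0.43 in Atg7F/F and 0.94 in Atg7+/+. Sfrp1, Dkk3 and Sfrp4 varied most in Atg7+/+, with differences of 1.72, -1.21 and 0.94 (replicate 2 minus replicate 1), and Rspo2, Sfrp4 and Sfrp2 in Atg7F/F, with 2.56, 2.05 and 1.20.

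Markers of other cell types moved with the replicates too, and their part in the Wnt results was not tested. In bulk extracts, fewer cells of a type and less RNA per cell cannot be told apart. Of 9 chondrocyte and osteoblast markers 6 were tested, with a median log2 ratio of -0.76 in replicate 1 and 0.60 in replicate 2. The cartilage genes Col2a1 (-0.96, then 2.15), Comp (-1.12, then 2.08) and Sox9 (-0.87, then 0.99) had the signs of Rspo2, as had the osteoblast gene Bglap (-0.64, then 0.05). Acan (1.03, then 0.21) and Runx2 (0.15, then 0.10) were above 0 in both replicates. The summed signal of this list was 1997 and 6376 in the Atg7F/F extracts and 3529 and 1871 in the Atg7+/+ extracts, on a linear scale, and the osteoblast markers Sp7 and Ibsp were above background in no channel.

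Of 11 adventitial fibroblast markers 9 were tested, with medians of -0.33 and 0.50 in replicates 1 and 2. Their summed signals were 11955 and 11514 in Atg7F/F and 14246 and 10217 in Atg7+/+, and Dpp4 was above background in no channel. Dkk3, Sfrp4 and Fzd1 were, like this list, more in favour of Atg7F/F in replicate 2. So were many other members, among them Rspo2, Fzd2, Fzd8 and Sfrp2, while Sfrp1, Wnt2, Wnt5a, Lef1 and others went the other way. The chondrocyte and osteoblast list and the adipocyte list had the order of the fibroblast list as well. All 13 endothelial markers were tested and 10 were lower in Atg7F/F on all 4 arrays, where the share of all probes was 10.1%. Their median was -0.35, with -0.19 in replicate 1 and -0.48 in replicate 2. The members lower on all 4 arrays differed in this order. Sfrp2 (-0.92, then -0.41), Fzd6 (-0.36, then -0.27) and 1 Tcf7l2 probe (-0.14, then -0.04) were further from 0 in replicate 1. Wnt9a (-0.06, then -0.30) was further from 0 in replicate 2. Endothelial sums were 11224 and 12952 in Atg7F/F and 12691 and 24564 in Atg7+/+.

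Smooth muscle sums were 292887 and 221574 in Atg7F/F and 299880 and 262677 in Atg7+/+. Of 7 neural and Schwann cell markers 5 were tested, with medians of 0.45 and 0.19 in the replicates and sums of 10987 and 14914 in Atg7F/F and of 11550 and 9103 in Atg7+/+. Elavl4 was above background in no channel. Of 11 macrophage and leukocyte markers 6 were tested, with sums of 2146 and 4748 in Atg7F/F and of 2766 and 3418 in Atg7+/+. The brightest genes weigh most in such linear sums. Here that was Lyz2, with log2 ratios of -0.50 and 0.58 in the replicates, while the medians of this list were -0.04 and 0.01. The defining Ptprc, Adgre1 and Itgam were above background in no channel. Adipocyte sums were 2816 and 4637 against 3672 and 3316 over 2 of 6 markers, without Adipoq, Cidec and Lep. Epithelial and mesothelial sums were 2260 and 3295 against 2097 and 4930, over 2 of 7 markers, without Epcam and Cdh1.

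The 22 genes that were not tested were at or near background. For 15 of them no channel was above background: Wnt1, Wnt2b, Wnt3, Wnt3a, Wnt8a, Wnt8b, Wnt9b, Wnt10b, Wnt16, Rspo3, Rspo4, Fzd10, Dkk1, Dkk4 and Axin2. Wnt1 and Wnt3a are the ligands best known for activating beta-catenin, and Dkk1 and Axin2 are widely used as readouts of that activity. Raw signals of all untested probes were between 51.1 and 76.0 in Cy3 and between 79.5 and 129 in Cy5. For Axin2 they were between 51.2 and 54.9 in Cy3 and between 85.5 and 87.1 in Cy5. Since no Axin2 channel was above background, no direction between the genotypes is read from them and no ratio is given. These signals limit what the arrays could measure and do not show that a transcript was absent.

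The other 7 genes were above background in some channels. Wif1, a secreted inhibitor that binds Wnt ligands, was above background in the Atg7F/F extract of replicate 2 on both of its arrays, at raw signals of 99.1 in Cy5 and 66.7 in Cy3, and in no other channel. In replicate 1 its Atg7F/F signals were 95.0 and 56.4. Sfrp5 was above background in Cy3 on all 4 arrays, in both genotypes, and never in Cy5. It therefore followed the dye and not the genotype. Wnt7a was above background in 1 channel, that of the Atg7+/+ extract of replicate 2 in Cy5, at 129, while the same extract in Cy3 gave 56.7 and was not above background. The local background of that Cy5 spot was itself 124, against 83.0 to 86.0 for this probe in the other Cy5 channels. Wnt7b, Wnt10a, Fzd9 and Tcf7 were above background in 1, 2, 2 and 5 of 8 channels.

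Several ligand genes are neighbours in the mouse genome, and the members of such pairs were measured unequally. Wnt6 and Wnt10a lie side by side on chromosome 1, and Wnt6 was above background in all 8 channels of its tested probe but Wnt10a in 2. Wnt9a was above background in all 8 channels of its tested probe and in none of its other probe, while its neighbour Wnt3a was in none. In the pairs Wnt1 with Wnt10b and Wnt3 with Wnt9b, neither gene was above background in any channel.

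**Figure D5:**
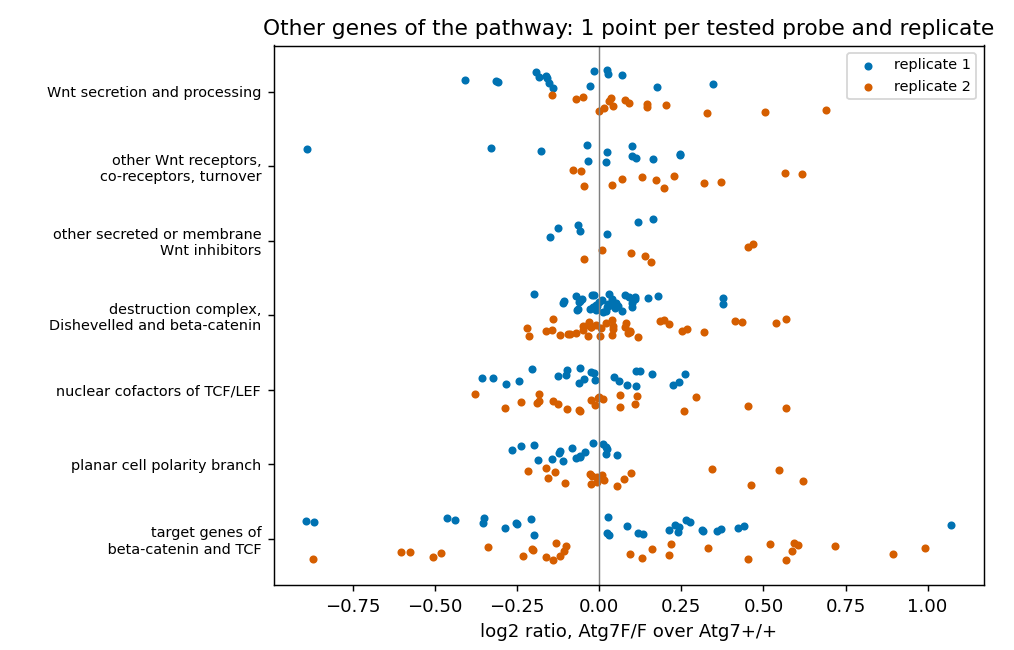
Log2 ratio (x axis) of each tested probe of the other pathway lists (y axis), with 1 point per probe and replicate. The spread is widest for the target genes of beta-catenin and TCF, from -0.89 to 1.07 in replicate 1.

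Other genes of the pathway were taken from 7 lists that hold 131 measured genes, 98 of them tested by 146 probes. By limma, 0 of these probes had an adjusted p below 0.05 and 5 (3.42%) had an unadjusted p below it, against 3.13% of all probes. Of the 146, 18 (12.3%) were higher in Atg7F/F on all 4 arrays and 12 (8.22%) lower, against 10.2% and 10.1% of all probes. Replicates were opposite for 44 (30.1%), against 25.3% of all probes. With median centring the number with one sign on all 4 arrays was 14 in place of 30. The median ratio of the lists together was 0.00.

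In the secretion list, 2 of 16 probes (12.5%) were higher and 1 (6.25%) lower on all arrays, against 10.2% and 10.1% of all probes. Trabd2b, a membrane protease that inactivates Wnt ligands, had ratios of 0.35 and 0.69 in the replicates and a mean of 0.52 ± 0.24 (limma, unadjusted p 0.0235). Wls, the carrier that takes Wnt proteins to the cell surface, had a mean of 0.34 ± 0.23 with one probe and of -0.01 with the other. Gpc6, a glypican, had -0.14 ± 0.25 and -0.10 with its probes, and Ext1, which builds heparan sulfate, 0.07 ± 0.01.

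Of 13 probes for other receptors, 3 (23.1%) were higher and 0 lower on all arrays, against 10.2% and 10.1% of all probes. Their median ratio was 0.10. Ptk7, a pseudokinase receptor, had a mean of 0.21 ± 0.05. Ryk, a Wnt-binding pseudokinase, had 0.22 ± 0.15 and, with its other probe, 0.24. Ror2, the Wnt5a receptor kinase, had 0.10 ± 0.09 and, with its other probe, -0.04, and the R-spondin receptor Lgr6 had 0.16 ± 0.12. Of 7 probes for other inhibitors, 1 (14.3%) was higher and 0 lower on all arrays, against the same shares of all probes. Apcdd1, a membrane inhibitor, had 0.29 ± 0.24, Igfbp4 had 0.32 ± 0.22, the Dickkopf receptor Kremen1 0.04 ± 0.14 and Draxin -0.03 ± 0.05.

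In the destruction complex list, 1 of 41 probes (2.44%) was opposite between replicates, against 25.3% of all probes. On all arrays 5 (12.2%) were higher and 3 (7.32%) lower, where 10.2% and 10.1% of all probes were. Tnks, the tankyrase that marks Axin for degradation, had 0.46 ± 0.11 (limma, unadjusted p 0.0132), though its other probes had 0.11 and 0.06. Csnk1e, a casein kinase, had 0.32 ± 0.08 (limma, unadjusted p 0.0282). Dact1, which binds Dishevelled, had 0.30 ± 0.17 and, with its other probe, 0.13, and Nkd2, a Dishevelled antagonist, had -0.17 ± 0.04.

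Of 24 probes for nuclear cofactors, 4 (16.7%) were higher and 3 (12.5%) lower on all arrays, against 10.2% and 10.1% of all probes. The Groucho corepressor Tle1 had 0.41 ± 0.23 with one probe and 0.06 with the other, while its relatives Tle4 and Tle5 had -0.24 ± 0.16 and -0.26 ± 0.09. Sox7, a transcription factor of endothelium that can bind beta-catenin, had -0.19 ± 0.01. Of 19 probes of the planar polarity branch, 0 were higher and 4 (21.1%) lower on all arrays, against 10.2% and 10.1% of all probes. The GTPase Rhoa had -0.23 ± 0.01 with one probe and 0.18 with the other, and the formin Daam1 had -0.14 ± 0.02 and -0.03. Rac1 had 0.18 ± 0.23 with one probe and -0.09 with the other, and Prickle1 had 0.28 ± 0.48.

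The target genes of beta-catenin and TCF, listed from general knowledge of the pathway in many tissues, were opposite between the replicates for 21 of 30 tested probes (70.0%), against 25.3% of all probes. Of the 30, 4 (13.3%) were higher and 2 (6.67%) lower on all arrays, against 10.2% and 10.1% of all probes. Ccnd1, a cyclin of the G1 phase, had 0.32 in replicate 1 and -0.51 in replicate 2. Cd44 (0.42, then -0.48) and Fosl1 (0.44, then -0.60) had the same order. Jag1, a Notch ligand, had the other order, with -0.89 and 0.72, as did the 4 Vegfa probes, of which the furthest apart had -0.44 and 0.60. Bmp4, a growth factor, was higher on all arrays with 0.41 ± 0.25 (limma, unadjusted p 0.0465). Myc had 0.21 ± 0.00 with one probe. Its other probes had means of 0.06 (0.36, then -0.23) and 0.10 (0.31, then -0.12), opposite between the replicates. Id2, a partner of helix-loop-helix factors, had -0.23 ± 0.03 with one probe and -0.05 (-0.25, then 0.16) with the other. Of this list, 7 probes (23.3%) had replicates more than 1 log2 unit apart, against 2.55% of all probes. Lef1 is on this list and among the 30 Wnt probes, and these genes respond to other signals as well.

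The core of the TCF/LEF binding motif, CTTTGAT or its reverse complement ATCAAAG, was searched in the RefSeq promoters of GRCm38.p6, from 250 bases before to 50 after the start. Promoters were given for 32 of the 49 genes. The motif was in 2 of their 40 promoters, those of Wnt5b and Wnt11, which is 5.0%, against 3.73% of all 32851 promoters. A match of these letters describes the sequence and not a bound site.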

How the data were processed

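Total RNA of the cultures was labelled and hybridised to 4 Agilent arrays, on 1 slide, as 2 dye-swapped pairs. The deposited scanner files hold each spot's mean intensity and median local background intensity per channel, not normalized, per the file headers. Agilent Feature Extraction 10.1.1.1 made them, per the submitters' processing notes. The deposited series table holds the authors' log2 ratios of that software's processed signals. They equalled the ratios of processed signals in the files within 0.001 for 100% of probes and run as Atg7F/F over Atg7+/+. Their medians were 0.199, -0.094, 0.081 and -0.037 on the 4 arrays, so they were not centred.

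Here intensities were background-corrected with normexp (offset 50) and loess-normalized within arrays, control spots at weight 0, in limma 3.58.1 (R 4.3.3). Dye swaps were averaged, which left n = 2. Probes well above background in at least 1 genotype on all 4 arrays and without outlier flags were tested, 17109 of 41174. Their 2 ratios were tested against 0 by lmFit and eBayes, two-sided, with 3.09 degrees of freedom and Benjamini-Hochberg adjustment over all tested probes. Signals of single extracts were made comparable between arrays with limma's Aquantile. Every unadjusted or adjusted p printed is from limma. The replicate number is part of this test, since each array holds the pair of one number; deviations of same-numbered extracts correlated at 0.20 across probes. The number of arrays limits the precision. The code was tested on simulated data. Gene names are the files', updated through RefSeq accessions for 25097 probes. Every tested member is named, and of each pathway list up to 4 genes with the smallest p; Ccnd1, Cd44, Fosl1, Jag1, Vegfa and the single markers were chosen after their values were seen. The members and lists were chosen with earlier results of these data known. Alternatives were the offset, no background subtraction, the processed and deposited values, median centring, other filters, 1 probe per gene, a trended prior and block choices.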

Additional observations from a re-analysis of the deposited data

How the results depend on the processing

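The count of members past the adjusted threshold was 0 in every setting that gave a test. The number at an unadjusted p below 0.05 by limma was 2, and 0 with median centring, 4 (of 71 probes) with no filter on dim probes, and 4 with the dye-swapped pair as a random block. Without the replicate block, with the 4 extracts' signals treated as unpaired, it was 1. The median member ratio was 0.032, and 0.062 with no offset, 0.014 with no background subtraction, 0.046 with the processed signals or the deposited table, 0.011 with no filter, and -0.026 to -0.0054 when either replicate was left out. Members higher on all arrays numbered 4, and 2 with median centring, 7 with no filter, and 12 to 13 on the arrays of 1 replicate. Members lower on all arrays numbered 4, and 0 with median centring and 13 to 13 on the arrays of 1 replicate. The 30 list probes with one sign became 14 with median centring and 94 to 105 with 1 replicate, which asks for fewer arrays to share a sign. For median centring the cause was not tested. Leaving out a replicate gave a value with no test. The 8 members with one sign on all arrays kept the sign of their mean in the 10 or 11 alternative settings that gave them a value; of the other 22, 5 changed it in some setting (both Wnt5b probes, Lrp6, Dkk2 and 1 Tcf7l2 probe), all with means near 0. Over all probes, 0 passed the adjusted threshold, but 9 did with the random block and 1 without the replicate block.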
